A study of Mus musculus with 15 samples.

Results

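The loops described here are the T-cell receptor (TCR) alpha-chain CDR3 peptides that end in the residues NNRIF, the end that the mouse joining segment TRAJ31 gives to a loop. They were chosen by their last 5 residues alone, and 3896 of the 92219 distinct CDR3 peptides in the 15 lists met the rule. Tumour libraries held CD8b+ CD4neg T cells from prostate tumors of 27-week-old TRAMP+/- males that carry the TCRbtg transgene, a TCR beta chain that is the same in all T cells. MP libraries held CD8b+ CD4neg CD44hi CD122+ (memory-phenotype) cells and Naive libraries held CD8b+ CD4neg CD44lo CD122neg cells, both from pooled spleen and lymph nodes of 9-week-old TCRbtg males without TRAMP. TRAMP mice are a transgenic model of prostate cancer in which a viral oncogene is driven in prostate epithelium. All mice were on the C57BL/6 background and there were 5 libraries per group. The lists hold alpha-chain peptides and no other transcript, so the sorted cell types could not be checked against markers. Tumour differed from both other groups in tissue, age, genotype and sort gate at once, so these cannot be told apart in any Tumour comparison below.

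A TCR alpha chain is made in the thymus by joining 1 of many V segments to 1 of many J segments, and bases are removed and added at the junction. The CDR3 loop covers this junction: its first residues come from the V segment, its last from the J segment, and the residues between them vary most. With the beta chain fixed, the alpha loop is the main part of the receptor that still differs between T cells and takes part in the contact with peptide on MHC. In the mouse annotation Traj31 lies between Traj32 and Traj30 on chromosome 14. No sequence of the segment was used here, so the name TRAJ31 rests on the 5 residues. Just outside the rule, 434 loops ended NRIF without NNRIF and took 0.0187% of Tumour, 0.0797% of MP and 0.124% of Naive reads on average.

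The results turn on a small number of loops, shown here so that the residues before the shared end can be compared. The 3 most abundant in MP, by mean percent of reads, were:

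MP loop with arginine and glycine: AMRGSNNRIF

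MP loop of 12 residues: AVSAVGSNNRIF

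MP loop with acidic residues: AASEDSNNRIF

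The 3 most abundant in Naive were:

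Naive leader: AVSADSNNRIF

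Naive loop with glycine: ALSDGSNNRIF

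Naive loop with asparagine: AIANSNNRIF

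The 4 that were higher in Tumour than in both other groups were:

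Tumour loop: AASAASNNRIF

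Tumour loop, 1 substitution away (A5S): AASASSNNRIF

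Tumour loop: ALSDHDNNRIF

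Tumour loop, 1 substitution away (D6N): ALSDHNNNRIF

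In such a token the residue of the loop printed above it comes first, then the position counted from 1 at the first residue of the loop, then the residue of the loop beside the token.

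Loops ending NNRIF took a smaller mean share of all reads in Tumour and MP than in Naive, but no difference passed the test across all ends. In Tumour 1 to 5 they took 0.900%, 1.78%, 3.68%, 1.07% and 1.07% of reads. In MP 1 to 5 they took 3.86%, 4.57%, 2.39%, 2.97% and 3.87%. In Naive 1 to 5 they took 4.97%, 5.31%, 4.72%, 3.61% and 3.60%. Tumour 1, 2, 4 and 5 lay below every MP and Naive library, Tumour 3 lay inside both ranges, and MP overlapped Naive. The means were 1.70 ± 1.16% in Tumour, 3.53 ± 0.855% in MP and 4.44 ± 0.793% in Naive (SD, n = 5 each), which gave the end rank 16 in Tumour, 10 in MP and 8 in Naive among all 5-residue ends.

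**Figure D1:**
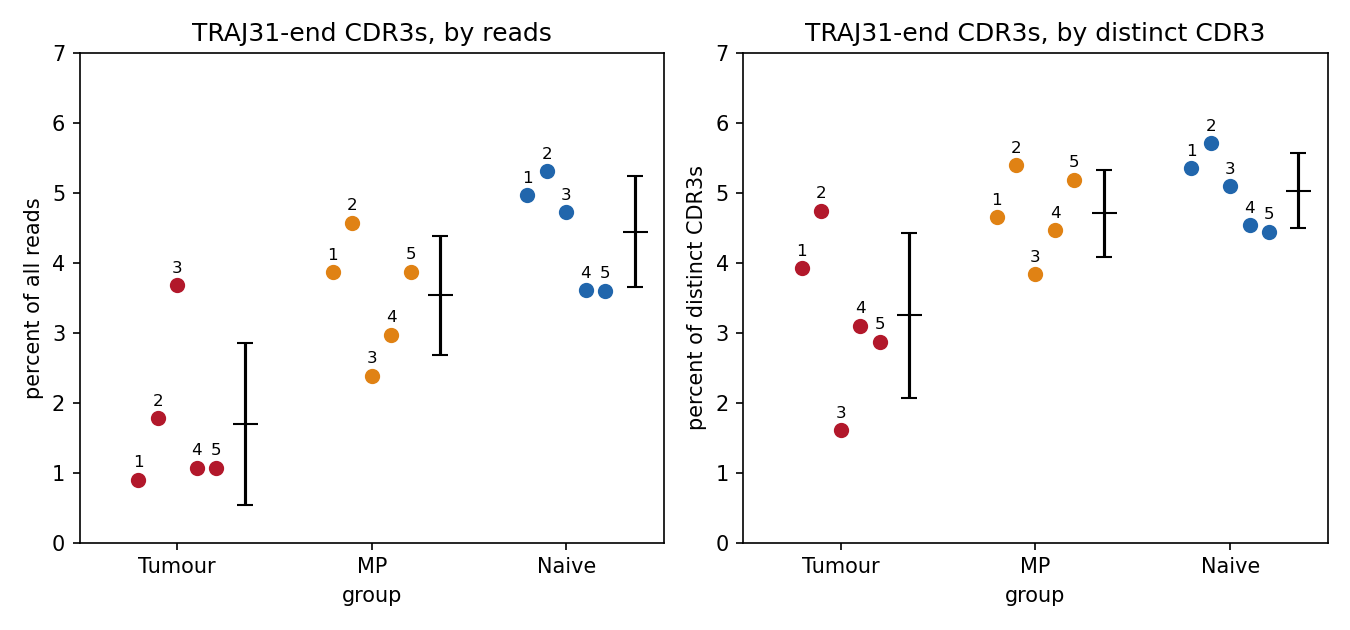
CDR3 loops ending in the TRAJ31 residues as percent of all reads (left) and of distinct CDR3s (right) in each numbered library (points), with the group mean and SD as bars, for Tumour, MP and Naive (n = 5 each). By reads the Tumour points sit between 0.900% and 3.68%, the MP points between 2.39% and 4.57% and the Naive points between 3.60% and 5.31%. By distinct CDR3s Tumour spans 1.61% to 4.74%, MP 3.84% to 5.40% and Naive 4.45% to 5.71%.

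An exact two-sided permutation test of the share was run for each of 39 ends, with Benjamini-Hochberg adjustment over all of them. The smallest p that 5 against 5 libraries allow is 0.00794. For NNRIF the Tumour minus MP difference was -1.83 percentage points (exact p = 0.0317, adjusted p = 0.0884), where 11 of the 39 ends (28.2%) passed at 0.05. The Tumour minus Naive difference was -2.74 points (exact p = 0.0238, adjusted p = 0.0546), where 14 ends (35.9%) passed. The MP minus Naive difference was -0.909 points (exact p = 0.135, adjusted p = 0.155), where 29 ends (74.4%) passed. Without Tumour 3 both Tumour differences passed, at -2.33 points from MP (exact permutation, adjusted p = 0.0442) and -3.24 points from Naive (adjusted p = 0.0387). The labels do not say how many cells each library holds, and in bulk RNA fewer cells with a loop and less receptor RNA per cell cannot be told apart.

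3 other ends give the scale of changes in the same libraries. AYKVI, the end of TRAJ30, took 9.94 ± 2.66% of Tumour, 3.73 ± 0.647% of MP and 6.65 ± 0.442% of Naive reads (SD, n = 5 each). TNKVV, the end of TRAJ34, took 12.7 ± 3.20% of Tumour, 19.6 ± 2.86% of MP and 10.3 ± 1.37% of Naive reads. NNAPR, the end of TRAJ43, took 0.861 ± 0.605% of Tumour, 2.48 ± 0.275% of MP and 7.48 ± 0.372% of Naive reads. Each of these differed between MP and Naive (exact permutation, adjusted p = 0.0119 for each), AYKVI and NNAPR downward and TNKVV upward, while the NNRIF share did not pass.

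Within the NNRIF loops the groups were far apart in how reads were spread. The number of distinct NNRIF loops listed was 58, 126, 15, 47 and 28 in Tumour 1 to 5, 577, 183, 85, 131 and 724 in MP 1 to 5, and 1583, 851, 1380, 1129 and 1147 in Naive 1 to 5. Every Naive library listed more than any MP library, and the largest Tumour list was longer than the smallest MP list. The depths were similar, with 627205 to 943699 reads per Tumour library, 574484 to 881988 per MP library and 547665 to 702663 per Naive library. The leading loop held 17.0% to 43.4% of a library's NNRIF reads in Tumour, 21.8% to 27.8% in MP and 7.19% to 8.73% in Naive. Between 2 and 7 loops covered at least 50% of the NNRIF reads in Tumour, 3 to 6 did so in MP and 28 to 34 in Naive. In Tumour 16.7% to 67.9% of a library's NNRIF loops lay 1 substitution from a loop at least 100 times as abundant in that library, against 7.04% to 28.4% in MP and 4.87% to 8.21% in Naive. The part of reading errors in these numbers was not tested.

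**Figure D2:**
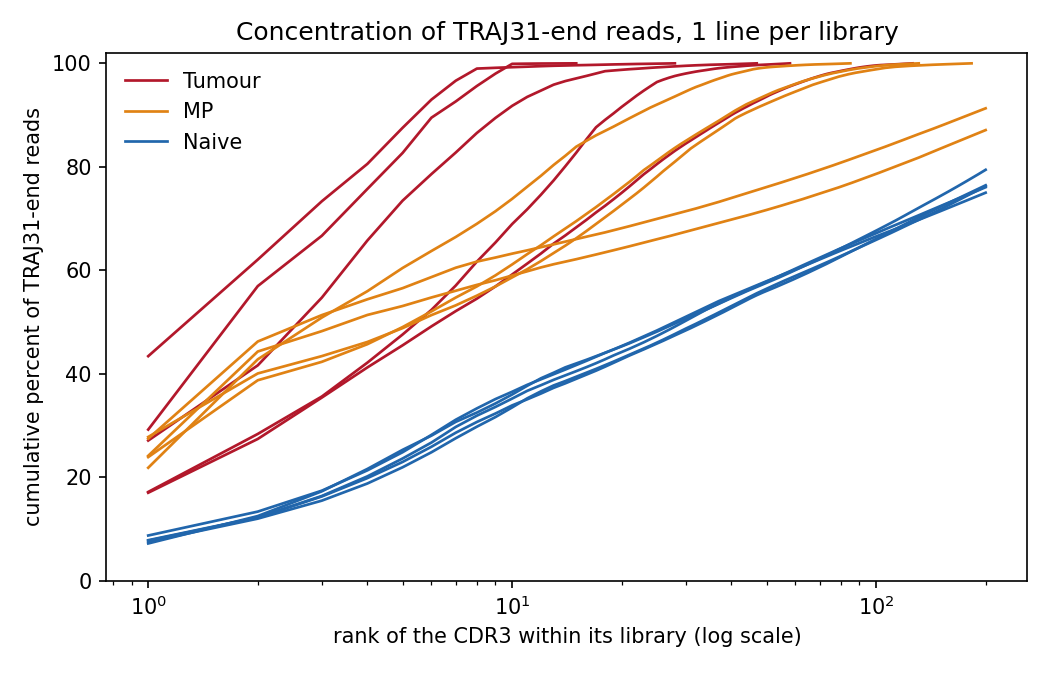
Cumulative percent of a library's NNRIF reads against the rank of the loop by reads (log axis), 1 line per library, for Tumour, MP and Naive (5 libraries each). Tumour and MP lines pass 50% within the first 7 loops, and Naive lines do so at 28 to 34 loops.

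The identity of the leading loop was shared in Naive and MP and was different in every tumour. AVSADSNNRIF led all 5 Naive libraries. AVSAVGSNNRIF led MP 1, 3 and 4 and AMRGSNNRIF led MP 2 and 5, each with the other next. The Tumour leaders were AVDSNNRIF in Tumour 1 at 0.154% of all reads, AMRGSNNRIF in Tumour 2 at 0.302%, AANSNNRIF in Tumour 3 at 1.08%, ATDDSNNRIF in Tumour 4 at 0.289% and AARNSNNRIF in Tumour 5 at 0.464%. In Tumour 3 another loop, ALSDPDSNNRIF, took a further 1.02%. AANSNNRIF, ATDDSNNRIF and ALSDPDSNNRIF were named after their values were seen. AARNSNNRIF held 43.4% of the NNRIF reads of Tumour 5, the highest share of any loop in its library, and was listed in 1 other tumour (Tumour 2, 0.00552%).

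Sharing among the libraries of a group followed the same order. Of 241 NNRIF loops listed in Tumour, 218 (90.5%) were in 1 library, and 1, ALSDHDNNRIF, was in all 5. Of 1182 listed in MP, 867 (73.4%) were in 1 library and 23 in all 5, and those 23 held 61.8 ± 7.33% of MP NNRIF reads (SD, n = 5). Of 3307 listed in Naive, 2067 (62.5%) were in 1 library and 294 in all 5, and those 294 held 76.0 ± 0.674% of Naive NNRIF reads. The number in all 5 cannot exceed the shortest list, which held 15 loops in Tumour, 85 in MP and 851 in Naive. List lengths thus limit these counts, and such counts over all CDR3s were not taken. Likeness of NNRIF read make-up was measured by the Morisita-Horn index, on a scale where 0 means no shared loop and 1 the same shares. It was 0.0615 ± 0.0407 over the 10 Tumour pairs, 0.902 ± 0.0634 over the 10 MP pairs and 0.973 ± 0.0152 over the 10 Naive pairs. Between MP and Naive libraries it was 0.0172 ± 0.00386. So both populations of spleen and lymph nodes had a repeatable make-up, and the MP make-up was unlike the Naive one. The index is a description, since pairs share libraries.

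Of the 1182 MP loops, 683 (57.8%) were also listed in Naive, which is 20.7% of the 3307 Naive loops. The 683 held 89.3% to 96.4% of an MP library's NNRIF reads and 62.0% to 66.2% of a Naive library's. Of the 23 loops in all 5 MP libraries, 19 were listed in at least 1 Naive library and 7 in all 5. Most MP NNRIF reads thus came from loops that Naive libraries also list, at other levels. AMRGSNNRIF and AVSAVGSNNRIF, the leading MP loops, counted as listed in Naive through 37 and 15 reads. The same shares over all CDR3s were not taken, so these values cannot be called particular to NNRIF loops. AASMNSNNRIF is an example of a loop at like levels, with 0.0772 ± 0.0212% in MP and 0.0711 ± 0.0134% in Naive (SD, n = 5 each; log2 fold change 0.12 ± 0.44 SE, edgeR adjusted p = 0.835), and it was among the 10 most abundant of both groups.

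The MP and Naive comparison set memory-phenotype cells beside naive cells of the same organs and age. A pair of loops held at least 38.7% of NNRIF reads in each MP library and at most 0.0959% in each Naive library. AMRGSNNRIF took 0.725%, 1.27%, 0.500%, 0.442% and 0.934% of all reads in MP 1 to 5. In Naive it was listed in 3 libraries, at 0.000854%, 0.00453% and 0.000905% in Naive 1, 3 and 4. Every MP library was above every Naive library, and the means differed 616-fold (log2 fold change 9.25 ± 1.58 SE, edgeR adjusted p = 0.000902). AVSAVGSNNRIF took 1.06%, 0.561%, 0.521%, 0.710% and 0.780% in MP 1 to 5 and was listed in 1 Naive library, Naive 1, at 0.00213%. Its MP mean was 0.727 ± 0.215%, which was 1702-fold the Naive mean of 0.000427 ± 0.000955% (log2 fold change 10.63 ± 1.86 SE, adjusted p = 0.000977). Together the pair held 42.4 ± 3.05% of MP NNRIF reads and 0.0362 ± 0.0415% of Naive NNRIF reads (SD, n = 5 each). With the pair set aside, the remaining NNRIF loops took 2.03 ± 0.502% of all reads in MP and 4.44 ± 0.792% in Naive. The pair was set aside after its values were seen and for being highest in MP, which lowers the MP share and leaves the Naive share almost unmoved, so this says nothing of a difference between the groups.

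Another loop lay 1 substitution from AMRGSNNRIF. AIRGSNNRIF, from which AMRGSNNRIF differs by I2M, took 0.118%, 0.115%, 0.193%, 0.0900% and 0.121% in MP 1 to 5 and had 2 reads in all Naive libraries, both in Naive 3. The pooled MP to Naive ratio was 1923, with an exact 95% counting interval of 532 to 15887 (edgeR adjusted p = 0.000662).

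Across all MP and Naive loops, 5954 had at least 10 reads in at least 3 of the 10 libraries and were tested with edgeR's quasi-likelihood test, 384 of them ending NNRIF. The other 3512 NNRIF loops were too sparse to test. Of the 384, 25 were higher in MP (6.51%, against 12.6% of all loops tested) and 170 were lower (44.3%, against 48.1%), at an adjusted p under 0.05. The 189 not called held 22.9% of MP and 19.3% of Naive NNRIF reads on average. The median log2 ratio of the group means was -2.19 over the 384 and -2.19 over all 5954, with a group that lists no read set to 3 reads per library. A loop passed the filter through the group in which it was abundant, so these counts describe abundant loops and not all members.

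The 25 higher loops held 60.5 ± 6.64% of MP NNRIF reads and 0.253 ± 0.103% of Naive NNRIF reads (SD, n = 5 each). The 170 lower loops held 0.822 ± 0.625% of MP and 60.2 ± 0.623% of Naive NNRIF reads, and 110 of them were listed in no MP library. The 25 and the 170 were called on these same reads, so their opposite shares follow from the choice and are a description. The share unlisted in MP over all lower CDR3s was not taken. Loops that began with AAS, residues from the V segment, were 9 of the 25 (36%) and 48 of the 384 tested (12.5%), a count chosen after the values were seen and not tested. AASEDSNNRIF took 0.197%, 0.0857%, 0.121%, 0.106% and 0.152% in MP 1 to 5, against 0.000548% to 0.00272% in Naive, a 76.4-fold difference in means (log2 fold change 6.24 ± 0.68 SE, adjusted p = 0.000587). AASGNSNNRIF averaged 0.0654 ± 0.0163% in MP and 0.00269 ± 0.00102% in Naive, 24.3-fold apart (adjusted p = 0.000662). AASTNSNNRIF averaged 0.0476 ± 0.0126% in MP and 0.000696 ± 0.000552% in Naive, 68.4-fold apart (adjusted p = 0.000887).

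AASGNSNNRIF, AASTNSNNRIF and AASMNSNNRIF differ from each other at position 4 alone (G4T, G4M and M4T). In this trio the threonine and glycine loops were higher in MP and the methionine loop was not called, although 1 residue separates them; whether the ratios differ was not tested. AASDHSNNRIF averaged 0.0463 ± 0.0216% in MP and had 2 reads in Naive, both in Naive 3 (pooled ratio 721, exact 95% counting interval 199 to 5959, edgeR adjusted p = 0.000679). AASDVSNNRIF, which differs from it by H5V, averaged 0.00743 ± 0.00533% in MP and was not listed in Naive, at least 14.8-fold higher against 3 reads per Naive library (adjusted p = 0.010). AENSNNRIF, a loop of 9 residues, averaged 0.0360 ± 0.00529% in MP and 0.00111 ± 0.00123% in Naive, 32.4-fold apart (adjusted p = 0.000802). VNSNNRIF, of 8 residues, took 0.00420%, 0.0246%, 0.0608% and 0.0515% in MP 1 to 4 and was not listed in MP 5, with a Naive mean of 0.000813 ± 0.00111% (log2 fold change 5.08 ± 1.89 SE, adjusted p = 0.0382). That last call was lost without MP 3 or MP 4, or without Naive 1, 2, 4 or 5, each left out alone (adjusted p = 0.0524 to 0.0889).

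The loops that were most abundant in Naive were at low levels or unlisted in MP. AVSADSNNRIF took 0.00295%, 0.0142%, 0.00239%, 0.00522% and 0.00702% in MP 1 to 5, against 0.434%, 0.382%, 0.369%, 0.279% and 0.270% in Naive 1 to 5. The means were 54.5-fold apart (log2 fold change -5.77 ± 0.68 SE, edgeR adjusted p = 0.000662), and no MP library reached the lowest Naive library. ALSDGSNNRIF was listed in no MP library and averaged 0.191 ± 0.0298% in Naive, at least 437-fold lower in MP (adjusted p = 0.000587). ALGYSNNRIF was also unlisted in MP and averaged 0.146 ± 0.0508% in Naive, at least 333-fold lower in MP (adjusted p = 0.000662).

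AVSGDSNNRIF and AVSVDSNNRIF differ from the Naive leader at position 4 (A4G and A4V), and both were lower in MP as well. AVSGDSNNRIF averaged 0.000331% in MP and 0.131 ± 0.0290% in Naive, and AVSVDSNNRIF averaged 0.000734% in MP and 0.143 ± 0.0277% in Naive. The means were 397-fold apart for the glycine loop (adjusted p = 0.00107) and 195-fold apart for the valine loop (adjusted p = 0.00341). All 3 loops of this trio were lower in MP.

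Loops that begin with AIA were looked at as a set after values were seen, and the set was not tested. AIA loops took 0.0605 ± 0.129% of NNRIF reads in MP and 7.26 ± 0.737% in Naive (SD, n = 5 each). By distinct loops they were 0.173 ± 0.299% in MP and 1.62 ± 0.0574% in Naive. The AIA loops named below were picked for their Naive level or their fold, so they are not separate support for the set. AIANSNNRIF was listed in MP 5 alone, at 0.00526%, against 0.195%, 0.281%, 0.195%, 0.128% and 0.113% in Naive 1 to 5 (log2 fold change -7.41 ± 2.00 SE, adjusted p = 0.0104). AIAHSNNRIF and AIAYSNNRIF, which differ at the same position (H4N from AIAHSNNRIF to AIANSNNRIF, and H4Y between the pair), were listed in no MP library and averaged 0.0204 ± 0.00514% and 0.0294 ± 0.0170% in Naive. They were at least 46.7-fold and 67.2-fold lower in MP (adjusted p = 0.000662 for each).

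**Figure D3:**
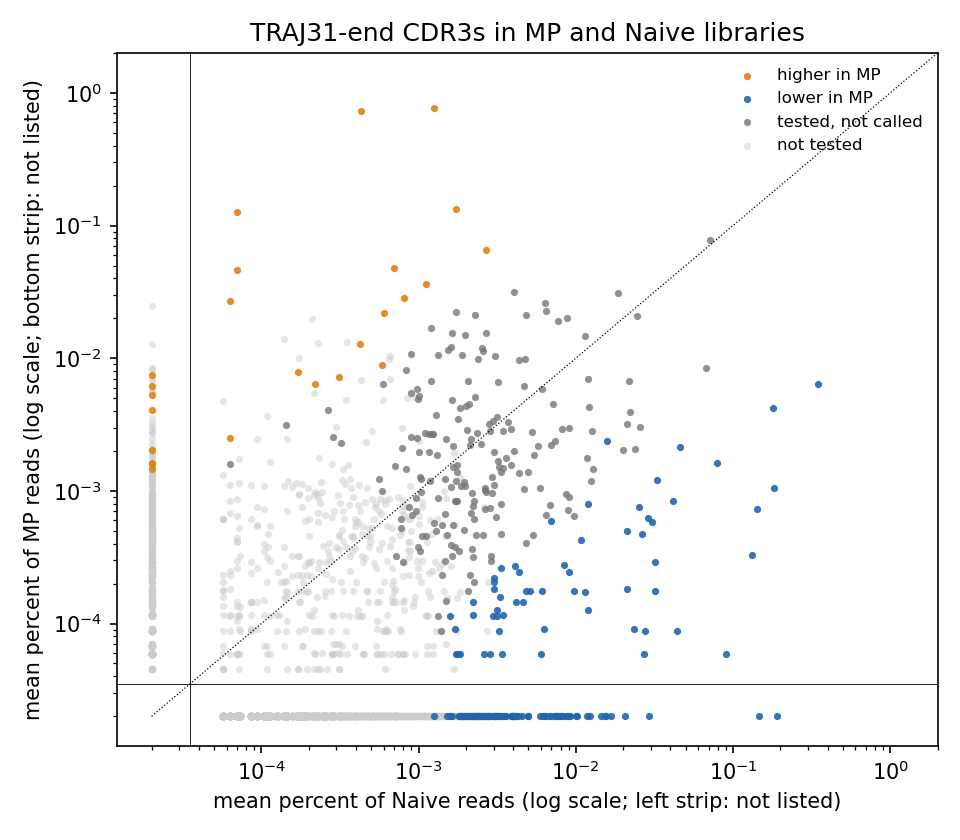
Mean percent of reads in MP (vertical, log axis) against the mean in Naive (horizontal, log axis) for every NNRIF loop listed in either group, with loops unlisted in a group drawn at the edge and the called loops coloured. The 25 loops higher in MP lie above the diagonal and the 170 lower ones below it.

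The residues just ahead of NNRIF also differed between groups when loops were weighted by reads. This look at residue classes was chosen after values were seen and was not tested. Serine stood directly before the end in 84.9 ± 4.81% of NNRIF reads in Tumour, 93.6 ± 1.53% in MP and 89.8 ± 0.544% in Naive (SD, n = 5 each). By distinct loops serine stood there in 79.8 ± 4.05% in Tumour, 82.8 ± 4.62% in MP and 78.9 ± 0.816% in Naive. Glycine then serine preceded the end in 8.51 ± 13.3% of Tumour and 51.8 ± 3.25% of MP NNRIF reads, and in 10.3% to 11.8% of the NNRIF reads of the Naive libraries. The lowest MP library, at 47.6%, was above the highest Tumour library, at 31.8%. The pair AMRGSNNRIF and AVSAVGSNNRIF made up 82.0 ± 3.50% of the MP reads in this class. Without the pair, which was chosen by its MP level, glycine-serine loops were 3.36 ± 3.07% of the other NNRIF reads in Tumour, 16.2 ± 3.50% in MP and 10.3% to 11.8% in Naive libraries. By distinct loops the class was 7.19 ± 5.62% in Tumour, 14.2 ± 5.14% in MP and 9.29 ± 0.817% in Naive.

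Asparagine, aspartate, histidine or tyrosine followed by serine, residues whose codons differ from each other at the first base alone, preceded the end in 50.3 ± 15.2% of Tumour, 35.3 ± 4.07% of MP and 65.5 ± 0.493% of Naive NNRIF reads. By distinct loops these classes were close, at 44.7 ± 2.84% in Tumour, 49.0 ± 5.63% in MP and 48.6 ± 1.11% in Naive. Aspartate-serine alone took 17.8 ± 16.0% of Tumour, 8.29 ± 0.650% of MP and 26.8 ± 0.700% of Naive NNRIF reads. By distinct loops it was 10.8 ± 6.12% in Tumour, 11.2 ± 2.84% in MP and 9.90 ± 0.418% in Naive, again with MP and Naive in the opposite order. Tyrosine-serine took 0.272 ± 0.608% of Tumour, 1.04 ± 0.945% of MP and 7.49 ± 0.821% of Naive NNRIF reads. Acidic residues (D or E) anywhere before the end were in 34.9 ± 17.0% of Tumour, 23.0 ± 1.82% of MP and 55.5 ± 1.49% of Naive NNRIF reads. Basic residues (K or R) were in 27.7 ± 24.1% of Tumour, 33.5 ± 4.29% of MP and 15.1 ± 0.873% of Naive NNRIF reads. By distinct loops the basic share was 29.4 ± 12.2% in Tumour, 25.4 ± 4.21% in MP and 28.4 ± 0.849% in Naive, so the order of MP and Naive was the opposite of that by reads. By distinct loops the acidic share was 32.7 ± 16.6% in Tumour, 41.2 ± 1.99% in MP and 44.1 ± 0.563% in Naive.

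Read-weighted mean loop length, which the choice of members did not use, passed the test in no comparison. It was 10.3 ± 0.425 residues in Tumour, 10.5 ± 0.213 in MP and 10.3 ± 0.0485 in Naive (SD, n = 5 each). MP minus Naive was 0.191 residues (exact permutation over 39 ends, adjusted p = 0.0998), where 25 of the 39 ends (64.1%) passed, 20 of them with shorter loops in MP. Without MP 2 it was 0.281 residues and passed (adjusted p = 0.0281). Tumour minus MP was -0.228 residues (adjusted p = 0.407), where 9 of 33 ends (27.3%) passed. Tumour minus Naive was -0.0373 residues (adjusted p = 0.921), where 8 of 33 ends (24.2%) passed. Single lengths differed more than the mean did, as a description with no test. Loops of 12 residues held 13.9 ± 14.4% of Tumour, 24.3 ± 6.69% of MP and 3.98 ± 0.229% of Naive NNRIF reads. Loops of 11 residues held 27.9 ± 5.24% of Tumour, 26.3 ± 5.34% of MP and 46.5 ± 2.65% of Naive NNRIF reads. By distinct loops, those of 12 residues were 15.9 ± 12.7% in Tumour, 13.8 ± 3.31% in MP and 13.6 ± 0.872% in Naive. Those of 11 residues were 33.5 ± 6.39% of distinct loops in Tumour, 41.3 ± 6.53% in MP and 38.5 ± 0.650% in Naive, so the lower MP share held by reads and not by distinct loops. AVSAVGSNNRIF has 12 residues, and with it and AMRGSNNRIF set aside, again by their values, the 12-residue share was 5.64 ± 2.97% in MP and 3.97 ± 0.212% in Naive.

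**Figure D4:**
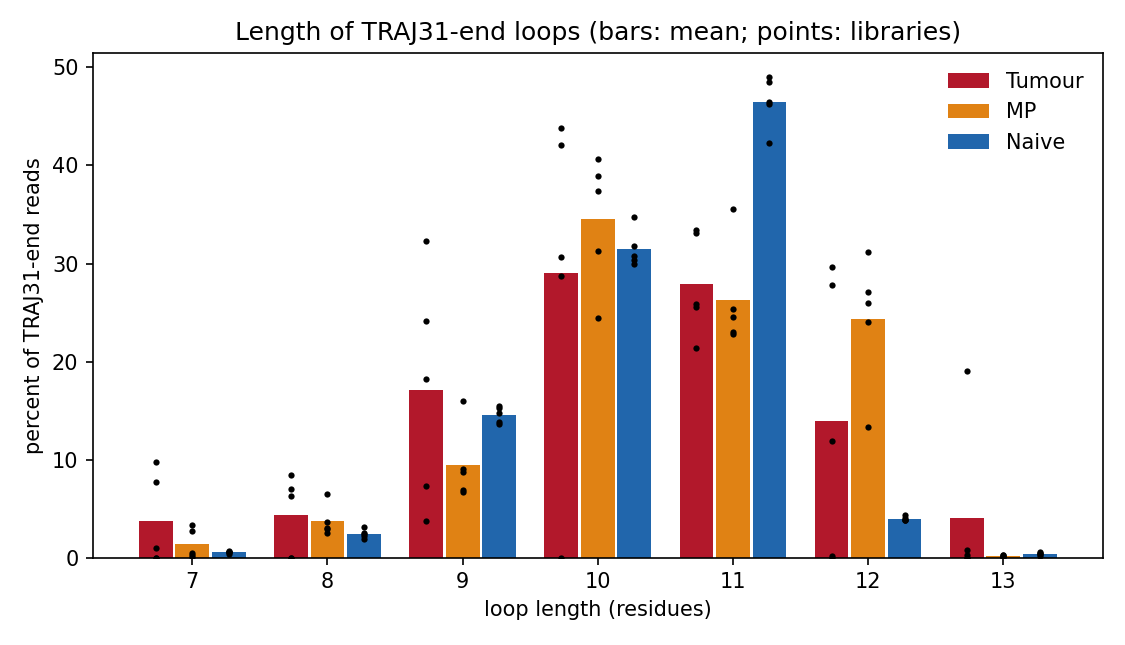
Percent of NNRIF reads (vertical) by loop length in residues (horizontal) for Tumour, MP and Naive, with bars for the group mean and points for the 5 libraries of each group. At 11 residues the means were 27.9% in Tumour, 26.3% in MP and 46.5% in Naive, and at 12 residues they were 13.9% in Tumour, 24.3% in MP and 3.98% in Naive.

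Prostate tumour CD8+ T cells were compared with MP and Naive cells to set tumour loops beside those of the lymphoid organs. 4 NNRIF loops were higher in Tumour, and the same 4 were called in both comparisons, which share the Tumour libraries. They held 16.4 ± 5.84% of Tumour NNRIF reads (SD, n = 5). All 4 passed the filter through Tumour libraries and were called on these same reads, so that share is a description. The 218 loops listed in 1 tumour alone could not pass the filter through Tumour. AASAASNNRIF took 0.0334%, 0.0254%, 0.333%, 0% and 0.0746% of reads in Tumour 1 to 5 and was listed in no MP or Naive library. It was absent from the list of Tumour 4 and highest in Tumour 3. The Tumour mean was at least 213-fold that of MP (edgeR adjusted p = 0.0152) and at least 186-fold that of Naive (adjusted p = 0.00656), against 3 reads per library. AASASSNNRIF took 0.0588%, 0.0760%, 0%, 0.155% and 0.0250% in Tumour 1 to 5 and was listed in MP 1 and MP 5 at 0.000454% and 0.000877%. The Tumour mean was 237-fold that of MP (adjusted p = 0.0183) and at least 125-fold that of Naive (adjusted p = 0.00488). Every tumour therefore listed at least 1 of this pair, and Tumour 1, 2 and 5 listed both.

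ALSDHDNNRIF took 0.0129%, 0.0525%, 0.251%, 0.00746% and 0.120% in Tumour 1 to 5, was listed in no MP library, and had 3 reads in Naive, all in Naive 5. It was at least 203-fold higher in Tumour than in MP (edgeR adjusted p = 0.0107). Against Naive the pooled ratio was 841, with an exact 95% counting interval of 288 to 4080 (adjusted p = 0.000670). ALSDHNNNRIF took 0.0256%, 0.0277% and 0.0582% in Tumour 1, 2 and 5, was not listed in Tumour 3 or 4 or in MP, and averaged 0.000142 ± 0.000195% in Naive. It was at least 50.9-fold higher in Tumour than in MP (adjusted p = 0.0183) and 157-fold higher than in Naive (adjusted p = 0.0106). The call against MP was lost without MP 1 and MP 5 together (adjusted p = 0.0774). All 4 loops have 11 residues, and the peptide lists do not say whether loops 1 substitution apart came from separate cells.

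A further loop close to this set was too sparse for the test. AASTSSNNRIF, from which AASASSNNRIF differs at position 4 (A4T from AASASSNNRIF to AASTSSNNRIF), took 0.0280%, 0.0882% and 0.000734% in Tumour 2, 3 and 4 and was not listed in Tumour 1 or 5 or in MP. It had 2 reads in Naive, both in Naive 1. AASTNSNNRIF, which AASTSSNNRIF differs from by N5S, was listed in no tumour and was higher in MP than in Naive as given above. ALELWNSNNRIF took 0.0415% in Tumour 1 and 0.0408% in Tumour 2 and was listed in no other library.

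Other abundant tumour loops were high in 1 or 2 tumours and did not pass the test. ASNNRIF, a loop of 7 residues, took 0.358% in Tumour 3 and 0.0823% in Tumour 4, was not listed in Tumour 1, 2 or 5, and averaged 0.000321% in MP and 0.00291% in Naive (Tumour against Naive, edgeR adjusted p = 0.0993). AARNSNNRIF took 0.464% in Tumour 5 and averaged 0.00295 ± 0.00291% in MP and 0.00387 ± 0.00290% in Naive. Its adjusted p was 0.149 for Tumour against MP and 0.111 for Tumour against Naive. AVDSNNRIF took 0.154% in Tumour 1 and 0.0445% in Tumour 4, with 0.000363% in MP and 0.00218 ± 0.000751% in Naive on average (adjusted p = 0.0750 against MP and 0.0926 against Naive). ATDSNNRIF, from which AVDSNNRIF differs by T2V, was the Naive-abundant counterpart, with no tumour listing it and 0.180 ± 0.0519% in Naive. ALTPNSNNRIF took 0.116% in Tumour 3 and 0.0121% in Tumour 4, with 0.00255% in MP and 0.000889% in Naive on average (adjusted p = 0.271 against MP and 0.0527 against Naive). Against Naive, ALTPNSNNRIF passed without Tumour 1, 2 or 5 (adjusted p = 0.0243, 0.0433 and 0.0247), and AVDSNNRIF passed without Tumour 2, 3 or 5 (adjusted p = 0.0476, 0.0492 and 0.0467). Against MP, AVDSNNRIF passed with DESeq2 (adjusted p = 0.0499) and with edgeR without the filter (adjusted p = 0.0485).

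Of 89 NNRIF loops tested in Tumour against MP, 4 were higher (4.49%, against 7.68% of the 1666 loops tested) and 55 were lower (61.8%, against 66%). Of 300 tested in Tumour against Naive, 4 were higher (1.33%, against 3.38% of 4671) and 262 were lower (87.3%, against 86.7%). In both comparisons the share that was higher lay below that of all loops tested, and the share that was lower was near it. The higher loops are the same 4 in both, so the comparisons do not repeat each other. Whether these shares differ from those of all loops was not tested. The median log2 ratio against MP was -3.45 for the 89 and -3.76 for all 1666. Against Naive it was -3.10 for the 300 and -3.16 for all 4671, with an unlisted group again set to 3 reads per library. Of the 55 lower loops 46 were listed in no tumour, and of the 262 lower loops 238 were listed in none. The same shares over all lower CDR3s were not taken. Tumour libraries listed 934 to 2657 CDR3s of any end, against 2216 to 13950 in MP and 14914 to 29559 in Naive. A loop could pass the filter through MP or Naive alone, so these counts describe loops abundant there. The count of 55 fell to 20 of 44 tested without MP 1, 20 of 48 without MP 5 and 34 of 68 without MP 2. The number tested thus fell with it.

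Among the lower loops, the Naive leader AVSADSNNRIF was listed in no tumour, at least 16.3-fold lower than in MP (edgeR adjusted p = 0.0107) and at least 889-fold lower than in Naive (adjusted p = 1.37e-05). AASGNSNNRIF and AASTNSNNRIF, 2 of the loops high in MP, were also listed in no tumour, at least 168-fold and 122-fold lower than in MP (adjusted p = 0.0103 for each). AASEDSNNRIF had 3 reads in Tumour, all in Tumour 2, and the pooled MP to Tumour ratio was 1789, with an exact 95% counting interval of 612 to 8678 (adjusted p = 0.0103).

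The calls for the pair that led MP turned on 1 tumour. AMRGSNNRIF was listed in Tumour 2 alone, at 0.302%, against 0.442% to 1.27% in MP (log2 fold change -3.68, edgeR adjusted p = 0.218). AVSAVGSNNRIF was listed in Tumour 2 alone, at 0.185%, against 0.521% to 1.06% in MP (log2 fold change -4.30, adjusted p = 0.155). Without Tumour 2 both were lower in Tumour (adjusted p = 0.00343 for each).

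Tumour 2 stood apart from the other tumours in its NNRIF make-up. The Morisita-Horn index between Tumour 2 and the 5 MP libraries was 0.724 ± 0.0391, while the highest value for any other tumour with an MP library was 0.0471. Tumour 2 listed 13 of the 23 loops found in all MP libraries, and these held 30.3% of its NNRIF reads. Most of that came from 2 loops, AMRGSNNRIF at 17.0% and AVSAVGSNNRIF at 10.4% of its NNRIF reads. The index was not taken without this pair. Tumour 2 also had the longest NNRIF list of the tumours, with 126 loops. Of the 23 loops found in all MP libraries, Tumour 3 listed 1 and Tumour 1, 4 and 5 listed none. Over loops with any end, those found in all MP libraries held 8.62% of the reads of Tumour 2, against 2.31% to 6.5% in the other tumours. The sort of the tumours used no CD44 or CD122 gate, and the part of that difference in this result was not tested.

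Of the 241 Tumour loops, 106 (44.0%) were also listed in MP, which is 8.97% of the MP loops, and held 57.0 ± 16.3% of Tumour NNRIF reads (SD, n = 5). 134 (55.6%) were also listed in Naive, which is 4.05% of the Naive loops, and held 71.2 ± 13.2% of Tumour NNRIF reads. The 90 Tumour loops (37.3%) listed in neither held 22.2 ± 12.1% of Tumour NNRIF reads. Over all 6146 CDR3s listed in Tumour, 1581 were also listed in MP, 2150 were also listed in Naive and 3635 (59.1%) were listed in neither, and those in neither held 33.2 ± 11.8% of all Tumour reads. The difference between NNRIF loops and all CDR3s was not tested. Most tumour NNRIF reads thus came from loops that at least 1 library of spleen and lymph nodes also listed, and 89 loops were listed in all 3 groups.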

How the data were processed

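The files hold, for each of 15 libraries, CDR3 peptides and read counts deposited by the authors. Per the labels' protocols, Trizol was used to extract RNA from the sorted cells, and the company iRepertoire prepared libraries with a multiplex PCR (arm-PCR). How reads were aligned, CDR3s called and errors filtered, and whether molecular identifiers were used, is not given in the sources used here. Counts are reads, and reads from PCR are not independent molecules, so intervals and the floor of 3 reads cover counting error only. The lowest count listed is 2, so an unlisted loop may have had 1 read. Reads per library ran from 547665 to 943699.

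Counts were taken as deposited and divided by each library's total for percent of reads. edgeR 4.0.16 (R 4.3.3) fitted each pair of groups over all CDR3s that reached 10 reads in 3 or more libraries, with total reads as library size and a robust quasi-likelihood test. Benjamini-Hochberg adjustment ran over all CDR3s tested, at 0.05. The SE is the log2 fold change divided by the square root of F. Shares and lengths of 5-residue ends were tested by exact permutation, with adjustment over all ends with a mean share of at least 0.1%. The edgeR script was tested on simulated data with the same spread for every CDR3 and most CDR3s unchanged. These libraries differ in both, so that run checks the code and not the error rate here. DESeq2 1.42.0, TMM, other filters, folding of loops 1 substitution from a loop 100 times as abundant, and leaving out libraries were alternatives.

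Loops named are the 10 with the highest mean share in each group with at least 10 reads in 3 libraries (2 for Tumour), and the 5 called with the largest fold change each way in each comparison. The members and lists were chosen with earlier results of these data known. The labels give 5 mice per age but do not tie Naive and MP libraries of 1 number to 1 mouse. No replicates agreed within sampling noise.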

Additional observations from a re-analysis of the deposited data

Results flagged for a closer look

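Of 49 groups of 5 libraries examined, 4 had 1 library whose gap to the nearest other was over 0.710 of the group's range. Chance gives about 1 in 20 such groups for values from a normal distribution, which read shares with many zeros need not follow. Not every named loop was examined in every group. AARNSNNRIF, at 0.464% in Tumour 5 and at most 0.00552% in the other tumours, was not among the groups examined. AASAASNNRIF was at 0.333% of reads in Tumour 3, against 0% to 0.0746% in the other tumours. ALTPNSNNRIF was at 0.116% in Tumour 3, against 0% to 0.0121% in the other tumours. ALNSNNRIF, a loop of 9 residues among the 10 most abundant of MP, was at 0.122% in MP 2, against 0% to 0.0179% in the other MP libraries. The same loop was at 0.0291% in Naive 3, against 0.0130% to 0.0175% in the other Naive libraries. Its MP and Naive means were 0.0310 ± 0.0517% and 0.0187 ± 0.00609% (SD, n = 5 each; edgeR adjusted p = 0.691).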

How the results depend on the processing

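The difference in NNRIF share ran from -1.17 to -0.622 percentage points for MP against Naive, from -2.33 to -1.57 for Tumour against MP and from -3.24 to -2.53 for Tumour against Naive when 1 library was left out. Calls gained were MP against Naive without the most abundant NNRIF loop of each library (-1.45, where the loop set aside was larger in MP than in Naive), Tumour against MP without Tumour 3 (-2.33), and Tumour against Naive weighted by distinct loops (-1.78), without the most abundant loop (-2.86) and without Tumour 3 (-3.24). The length difference ran from 0.141 to 0.281 residues (called without MP 2), from -0.368 to -0.0984 and from -0.177 to 0.0926 in the same order of comparisons. It was reversed when weighted by distinct loops, at -0.00196, 0.0504 and 0.0484, and for Tumour against Naive without Tumour 3 (0.0268) and without Tumour 4 (0.0926). In MP against Naive, the 25 higher loops were 15 with at least 50 reads required and 72 without the filter, and the 170 lower loops 46 and 709. With 1 library left out, higher counts were 18 to 29 and lower counts 122 to 185. In Tumour against MP, the 4 higher loops were 15 without the filter and 3 to 4 with 1 library left out. The 55 lower loops of 89 tested were 18 of 32 with at least 50 reads and 238 of 369 without the filter. They were 20 to 66 with 1 library left out and 10 of 30 without MP 1 and MP 5. In Tumour against Naive, the 262 lower loops were 61 and 1166 by the same filters, with 198 to 272 lower and 4 to 5 higher when 1 library was left out. The cause was not tested, apart from the number of loops each filter tests.

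Same-numbered MP and Naive libraries correlated by 0.000247 to 0.0721 over 486 loops and 1 of 5 matched its own number best, so the numbers were not taken as pairs. With the replicate block, Tumour against MP gave 2 higher and 9 lower loops. Tumour libraries came from other mice than MP and Naive libraries, so a block by number is arbitrary in both Tumour comparisons. Among named loops, none called in its comparison, the sign reversed with the block for AARNSNNRIF (-4.29), ASNNRIF (-0.0065) and AVDSNNRIF (-3.35) in Tumour against Naive and for ALTPNSNNRIF (-2.21), ALNSNNRIF (-1.41) and ALSSNNRIF (-0.94) in MP against Naive. It also reversed for AASMNSNNRIF with DESeq2 (-0.0225). With 1 library left out, AARNSNNRIF ran from -1.09 (without Tumour 5) to 5.51 against MP and from -1.46 (without Tumour 5) to 4.98 against Naive in Tumour, and in MP against Naive AASMNSNNRIF ran from -0.0278 (without MP 3) to 0.243 and ALNSNNRIF from -1.18 (without MP 2) to 1.05. Of the named calls, 1 of 21 was lost under some alternative in MP against Naive (VNSNNRIF). In Tumour against MP 10 of 15 were lost, by edgeR adjusted p values of 0.0548 to 0.0819. These were AASASSNNRIF, AASDHSNNRIF, AASDVSNNRIF, AASMNSNNRIF, AENSNNRIF, ALSDHNNNRIF, ALSSNNRIF, ATDSNNRIF, AVSADSNNRIF and VNSNNRIF, all but AASMNSNNRIF with the replicate block. Under alternatives other than the block, only AASDHSNNRIF, AASMNSNNRIF and ALSDHNNNRIF were lost. In Tumour against Naive 1 of 19 was lost, with the replicate block alone (ALSDHNNNRIF, edgeR adjusted p = 0.199).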
